A study of Mus musculus with 7 samples.

Results

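The cells described here are Cxcr6-positive, Cxcr5-negative virus-specific T cells from the spleens of mice with intact Thpok, 30 days after infection with lymphocytic choriomeningitis virus, Armstrong strain. A UMI marks 1 captured RNA molecule, and a barcode counted as a cell when 500 or more genes had a UMI and mitochondrial genes took no more than 10% of its UMIs. Of the 725 cells of this library, the 64 with 1 or more Cxcr6 UMIs and no Cxcr5 UMI are called members, and the other 661 the other cells. Members made up 8.83% of the library (95% exact binomial interval 6.86% to 11.1%) and 64 of the 16427 cells of the series. Single-cell 3' RNA was read in 7 libraries, of which 5 held GP66+ cells, sorted by binding of an I-Ab class II tetramer loaded with the viral peptide GP66. The members were chosen by their measured Cxcr6 and Cxcr5 counts, so their differences from the other cells of this library are given as a description without a test.

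The member library came from C57bl/6 mice of genotype Ox40-Cre+ Thpokwt/wt RosaYFP+ at day 30, sorted as GP66:I-Ab+, CD44high and YFP+. A library of the same genotype and sort at day 7 held 2157 cells, of which 315 passed the same Cxcr6 and Cxcr5 gate. Ox40-Cre+ Thpokfl/fl RosaYFP+ mice gave 1 library at day 7 (689 of 1333 cells in the gate) and 1 at day 30 (311 of 736). In these 4 libraries Cre under the Ox40 promoter switches on the yellow reporter in activated T cells, and where both Thpok alleles are floxed it also deletes Thpok in them. The fifth GP66+ library held day 7 cells of wild type mice without Cre, sorted as CD44high CD4+ cells (354 of 2261 cells in the gate). For the other GP66+ libraries the labels name no CD4 gate. Neither the age nor the number of mice per library is given, and every group has 1 library.

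CXCR6 is a chemokine receptor whose ligand is CXCL16, and it is carried by T cells that have taken up an effector or tissue-homing programme. CXCR5 directs follicular helper (Tfh) cells to B cell follicles. After an acute viral infection, helper T cells of the Th1 type, which make interferon gamma under control of T-bet, and Tfh cells both leave memory cells. Memory helper cells depend on the interleukin 7 receptor for survival, and their recirculation through lymphoid organs depends on the factor KLF2 and its target S1PR1. Thpok, encoded by Zbtb7b, keeps helper cells from taking up the CD8 T cell programme.

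Depth and library quality bear on all that follows. Members held 149614 UMIs and the other cells 1402158, with medians of 2000.5 and 2026 UMIs and of 867 and 829 genes per cell. The day 7 gate of the same genotype held 2126457 UMIs with a median of 6099 per cell. Cells held 71.6% of all UMIs of the member library, against 88.8% to 95.8% in the other 6 libraries. Zbtb7b, the targeted gene, had 2 UMIs in members and 30 in the other cells, 21.4 to 32.8 CPM (UMIs scaled to a fixed total of all UMIs of the arm) in the other cells of the 3 libraries with intact Thpok, and 2 UMIs in all in the Thpok-deleted pair. Of the 725 cells, 11 shared a barcode with a cell of another GP66+ library. These included 4 members, 3 of which shared it with the Thpok-deleted library of day 7 and 1 with the wild type library. With the Thpok-deleted library of day 7, 5 cells in all shared a barcode, where 1.31 would be shared if barcodes were drawn at random, and whether molecules crossed between these libraries was not tested. Without these 4 members the counts of genes 2-fold higher and lower in members than in the other cells were 77 and 205, against 76 and 207 with them. No doublet caller was run.

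Members were T cells by their transcripts. A UMI of at least 1 of the 5 T cell markers, Cd3d, Cd3e and Cd3g among them, was found in 63 of 64 members. The summed level of the list was 1798 CPM in members against 1806 CPM in the other cells. Of the 5, Cd44 was 2-fold or more lower in members and 0 were higher. Cd4, the helper co-receptor, stood at 160 CPM in members and 174 CPM in the other cells, a ratio of 0.922 (95% counting interval 0.579 to 1.40). Cd8a had 0 UMIs in members and 3 in the other cells, and Cd8b1 had 1 and 8. Foxp3, which defines regulatory T cells, had 0 UMIs in both. The list of 5 regulatory T cell markers stood at 134 CPM in members (20 UMIs in 14 cells) and 131 CPM in the other cells (184 UMIs in 130 cells). Of these, Ikzf2 had 13 and 108 UMIs, a ratio of 1.13 (0.582 to 2.01). Of the natural killer list, Ncr1, Eomes and Klra8 were at 0 in members, Klrb1c had 2 UMIs and Klre1 held the rest. The list stood at 33.4 CPM in members (5 UMIs in 4 cells) against 7.13 CPM in the other cells (10 UMIs). The natural killer T list stood at 20.1 and 12.1 CPM (3 and 17 UMIs), with its defining factor Zbtb16 at 0 in both arms, and the gamma-delta T list at 13.4 and 3.57 CPM (2 and 5 UMIs). The part of cells with these markers in the results was not tested. Erythroid markers were at 0 in members, and B cell markers summed to 1 UMI. Of the 7 myeloid markers, Lyz2, Csf1r, Fcer1g, Itgam and S100a9 were at 0, and the list stood at 80.2 CPM in members against 142 CPM in the other cells.

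The gate itself rested on few molecules. Cxcr6, on chromosome 9 (GRCm38, 123806475 to 123811760), had 1 UMI in 51 members, 2 or more in 13, and at most 4. A Cxcr6 UMI was found in 66 cells in all, and the 2 that also held a Cxcr5 UMI were left among the other cells. Ccl5 stood at 7474 CPM in members with 1 Cxcr6 UMI and 8366 CPM in those with 2 or more, against 1321 CPM in the 659 cells with none. Nkg7 stood at 811, 577 and 253 CPM in these 3 sets, and the intervals of the first and second overlapped (657 to 990 and 342 to 912). Klf2 stood at 1047, 321 and 1813 CPM, and here the interval of cells with 2 or more Cxcr6 UMIs, 154 to 589, lay below that of cells with 1. Barcodes with 400 to under 500 genes, just outside the gene minimum, included 3 in the gate with 6858 CPM of Ccl5, and the 5 members with 500 to under 600 genes had 5210 CPM. In droplets with at most 100 UMIs, which hold free RNA, Cxcr6 stood at 65.4 CPM and Ccl5 at 1427 CPM in this library. The sort holds no cell type that should lack Cxcr6, so the share of members that carry only a free Cxcr6 molecule was not tested.

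In mice with intact Thpok the shares of cells in the gate at day 30 and day 7 had overlapping intervals once cells were compared at equal depth. Unthinned, it was 8.83% at day 30 and 14.6% at day 7 (95% exact binomial interval 13.1% to 16.2%). With each cell thinned at random to 1000 UMIs it was 4.62% at day 30 (33 of 714 cells, 3.20% to 6.43%) and 5.94% at day 7 (128 of 2154 cells, 4.98% to 7.03%), and the intervals overlapped. At 2000 UMIs it was 6.47% (24 of 371 cells) and 9.13% (194 of 2125 cells). Cells of the Thpok-deleted libraries were in the gate more often at 1000 UMIs, 14.9% at day 7 and 22.0% at day 30, and neither interval overlapped that of the intact library of the same day. These intervals cover counting error only, and with 1 library a group the differences have no replicate check.

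**Figure D1:**
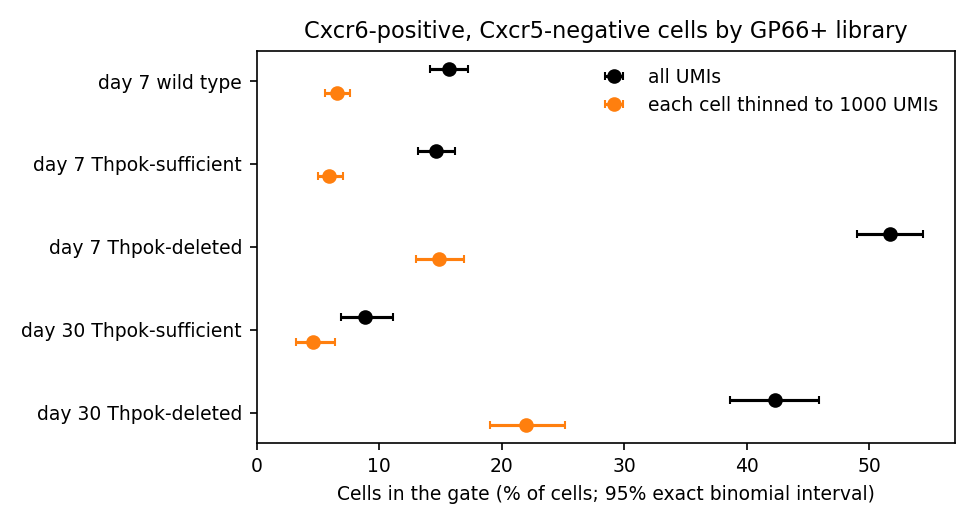
Share of cells in the Cxcr6-positive, Cxcr5-negative gate (x axis, percent of cells) in each of the 5 GP66+ libraries, with all UMIs (black) and with each cell thinned to 1000 UMIs (orange). Bars are 95% exact binomial intervals, and the member library moves from 8.83% to 4.62% on thinning.

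Among 3127 genes with 50 or more UMIs in the library, 76 (2.43%) stood 2-fold or more higher in members than in the other cells and 207 (6.62%) 2-fold or more lower. Over all genes the median log2 ratio was 0.01. With TMM factors, which equalise the bulk of genes between both sums, every log2 ratio of this comparison dropped by 0.16, and the counts were 40 higher and 296 lower. The share of higher genes among those past 2-fold was then 11.9%, against 26.9% with totals alone. All ratios below are of CPM over total UMIs, and their 95% intervals are exact conditional intervals that cover counting error only.

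Ccl5, a chemokine that draws T cells and monocytes, was found in most members. The gene lies on chromosome 11 (GRCm38, 83525778 to 83530518). Ccl5 had 1146 UMIs in members (7660 CPM) and 1854 in the other cells (1322 CPM), a ratio of 5.79 (5.38 to 6.24). Single members held from 0 to 110 Ccl5 UMIs, with a median of 12, and 52 of 64 held at least 1. Of the other cells 179 of 661 held a Ccl5 UMI, and the 74 of them with 10 or more held 84.6% of that arm's Ccl5 UMIs. High Ccl5 was thus found in members and in a minority of cells without a Cxcr6 UMI. Thinned to 1000 UMIs after the gate was set, 76.2% of members and 22.3% of the other cells held a Ccl5 UMI.

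Ccl4, the chemokine known as MIP-1 beta, had the highest ratio and came almost wholly from 1 cell. It had 74 UMIs in members against 9 in the other cells, a ratio of 77.1, and 68 of the 74 lay in a single member. That cell also held 23 of the members' 53 Ifng UMIs and 7 Ccl3 UMIs. The Ccl4 ratio without it was 6.31, and only 3 members held a Ccl4 UMI. Ifng, the Th1 effector cytokine, stood at 354 CPM in members and 82.7 CPM in the other cells, a ratio of 4.28 (3.03 to 5.98) that was 2.45 without its top cell. A total of 17 of 64 members and 78 of 661 other cells held an Ifng UMI.

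In the cytotoxic granule list 2 of 8 measured genes, Nkg7 and Serpinb9, were 2-fold higher in members and 0 lower, with a median log2 ratio of 0.43. The other 6 did not reach 2-fold, from a ratio of 0.593 for Cst7 to 1.93 for Serpinb6b. Nkg7, a protein of cytotoxic granules on chromosome 7 (GRCm38, 43437073 to 43438249), had 114 UMIs in members and 356 in the other cells, a ratio of 3.00 (2.41 to 3.72). It was found in 42 members, with at most 12 UMIs in a cell. Ly6c2, a surface marker of Th1-type effector cells in mice, had 93 and 196 UMIs, a ratio of 4.45 (3.44 to 5.72), with 28 members positive. Klrd1, which encodes the CD94 chain of killer cell receptors, had 23 and 33 UMIs (ratio 6.53, 3.66 to 11.5), spread over 13 members. Serpinb9, an inhibitor of granzyme B, had 28 and 80 UMIs (ratio 3.28). The granzymes were scarce in members: Gzmb had 5 UMIs, and Gzma and Gzmk had 0.

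Of the remaining named higher genes, Plac8 had 27 and 38 UMIs (ratio 6.66, 3.91 to 11.2). Furin, a protease that processes precursor proteins, had 51 and 98 UMIs (ratio 4.88, 3.60 without its top cell). Bhlhe40, a transcription factor tied to cytokine production by T cells, had 85 and 253 UMIs (ratio 3.15, 2.43 to 4.04) and was found in 40 members. Rgs1, a brake on chemokine receptor signalling, had 36 and 97 UMIs (ratio 3.48), and Lgals3, a galectin, 21 and 50 (ratio 3.94). Plac8 was found in 13 members and Furin in 17, against 29 and 66 of the other cells.

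**Figure D2:**
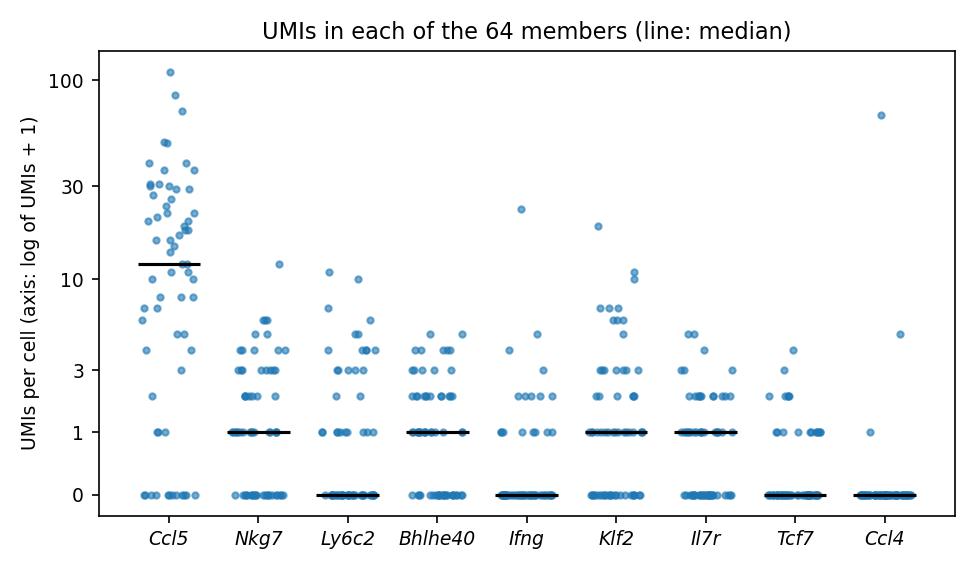
UMIs of 9 genes in each of the 64 members, on a logarithmic axis of UMIs + 1. Each point is 1 cell and each line the median, which is 12 for Ccl5 and 0 or 1 for the other genes, and 1 cell stands apart at 68 Ccl4 UMIs.

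By the chosen lists, 5 of the 16 measured genes of the Th1 and inflammatory helper list were 2-fold higher in members and 0 lower, with a median log2 ratio of 0.83 beside 0.01 for all genes. These 5 were Fasl, Runx3, Bhlhe40, Ifng and Ly6c2. Runx3, a factor of Th1 and CD8 T cells, stood at 201 CPM in members and 80.6 CPM in the other cells, a ratio of 2.49 (1.61 to 3.75). The ratio of Fasl, a ligand that triggers death of target cells, was 2.24 (1.24 to 3.85), but its log2 ratio was -0.025 when cells were thinned to 1000 UMIs before the gate. Tbx21, the gene of T-bet, had 9 and 38 UMIs and a ratio of 2.22 (0.944 to 4.67), under the minimum of 50 UMIs. Stat4, which carries interleukin 12 signals, had a ratio of 1.41 (1.05 to 1.87), and Id2, a factor opposed to Tfh fate, 1.87 (1.36 to 2.52). The 3 measured genes of the CD8 lineage list were higher, namely Runx3, Klrd1 and Klrk1, while Cd8a was at 0. Klrk1 had a log2 ratio of -0.33 when cells were thinned before the gate. In the interferon list 2 of 8 were higher, Isg15 (ratio 2.07) and Irf7 (ratio 2.19). In the S100, annexin and galectin list 1 of 13 was higher, Lgals3.

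In the Tfh list 3 of 13 measured genes were lower and 0 higher, with a median log2 ratio of -0.50; the gate's exclusion of Cxcr5 took part in choosing these cells. Tnfsf8, the gene of CD30 ligand, had 41 UMIs in members and 879 in the other cells, a ratio of 0.437 (0.311 to 0.598). Tox had 12 and 282 UMIs (ratio 0.399, 0.204 to 0.708), and Btla, an inhibitory receptor, 2 and 55. Icos, the costimulatory receptor of Tfh cells, stood at 795 CPM in members and 819 CPM in the other cells (ratio 0.971, 0.797 to 1.17). Klf2 stood at 896 CPM in members and 1809 CPM in the other cells, a ratio of 0.495 (0.413 to 0.589), with 134 UMIs spread over 40 members. Ccr7, the lymph node homing receptor, had a ratio of 0.462 (0.218 to 0.867), and S1pr1 of 0.724 (0.511 to 0.999). In the egress and lymphoid homing list 2 of 7 measured genes, Klf2 and Ccr7, were lower and 1, S1pr4 (ratio 2.11, 1.23 to 3.45), was higher, with a median log2 ratio of -0.19.

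The memory and survival list had 2 of 11 measured genes lower, Il6ra (2 and 80 UMIs) and Lef1 (8 and 158 UMIs), and 0 higher. Il7r was not among them. It stood at 421 CPM in members and 434 CPM in the other cells, a ratio of 0.970 (0.736 to 1.26), and 35 of 64 members held an Il7r UMI. Tcf7, the gene of the memory and Tfh factor TCF-1, had 28 and 421 UMIs, a ratio of 0.623 (0.409 to 0.914), and was found in 18 members. Bcl2, a survival factor, had a ratio of 0.596 (0.348 to 0.959). In the cell cycle list 0 of 5 measured genes passed 2-fold in either direction.

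Other genes lower in members were mostly of low count or of stress. Kcnq1ot1, a nuclear noncoding RNA, had 1 UMI in members and 126 in the other cells, 13.4-fold lower (2.37 to 535). Rgcc had 13 and 374 UMIs, 3.07-fold lower (1.77 to 5.82). Adk, Dap3, Rbmxl1 and Slc41a1 had no UMI in members. With the members set at a floor of 3 counts, these were at least 2.38-, 2.24-, 2.03- and 2.03-fold lower. Rbck1 and Tcof1 had 1 UMI each in members, with ratios of 0.106 (0.00267 to 0.609) and 0.112 (0.00279 to 0.639). Zfp36, which destabilises cytokine messages, and Hspa1a, a heat shock protein, had ratios of 0.305 (0.121 to 0.640) and 0.274 (0.0879 to 0.652). Both belong to the list of genes that respond to tissue dissociation, in which 3 of 13 measured genes were lower. The median share of mitochondrial UMIs was 3.66% in members and 4.80% in the other cells, and its part in these ratios was not tested.

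Against the 63 Cxcr5-positive, Cxcr6-negative cells of the same library, Ccl5 stood 11.5-fold higher in members (9.37 to 14.3). Nkg7 stood 3.74-fold higher (2.49 to 5.80), Bhlhe40 8.37-fold (4.34 to 18.1) and Ifng 10.4-fold (4.20 to 33.5). Klf2 was lower in members than in these cells by a ratio of 0.483 (0.390 to 0.597) and Tnfsf8 by 0.254 (0.176 to 0.360). Il7r stood at 421 CPM in members and 428 CPM in the Cxcr5-positive cells (ratio 0.985, 0.684 to 1.42). Tcf7 had a ratio of 0.641 (0.384 to 1.06), an interval that includes 1.

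The same gate was then applied to the 4 other GP66+ libraries. Their cells were not used to pick the members, but the gate was chosen with earlier results of these data known. The 12 named higher genes were higher in the gate in 4 of 4 of these libraries. In the libraries of day 7 with intact Thpok Ccl5 had ratios of 8.63 in the wild type and 8.42 in the Thpok-sufficient library, beside 5.79 in members. Nkg7 had 2.93 and 2.96 (members 3.00), Ly6c2 3.28 and 3.72 (members 4.45), and Bhlhe40 3.55 and 3.73 (members 3.15). In the Thpok-deleted libraries they lay nearer 1, with Ccl5 at 1.12 at day 7 and 1.48 at day 30, and Nkg7 at 1.08 and 1.53. There the other cells also held much Ccl5, 9914 CPM at day 7 and 17469 CPM at day 30.

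**Figure D3:**
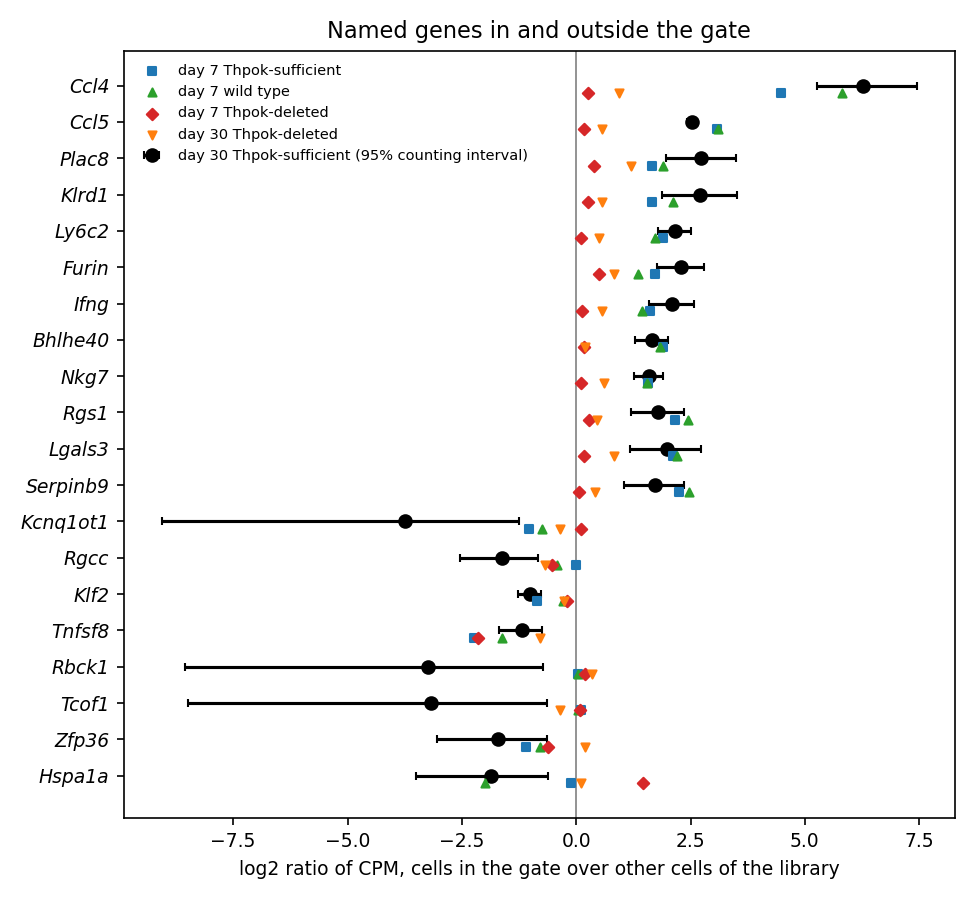
Log2 ratio of CPM, cells in the gate over the other cells of the same library, for the named genes with a UMI in members. Black points with 95% counting intervals are the member library and coloured points the other 4 GP66+ libraries; for the 12 genes from Ccl4 to Serpinb9 the Thpok-deleted libraries lie closest to 0.

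In edgeR's quasi-likelihood test of these 4 pairs of sums, with the library as block and Benjamini-Hochberg adjustment, 4 of 9894 genes rose in the gate (0.0404%) and 32 fell (0.323%). At an unadjusted p under 0.05 there were 866 and 970. The 4 libraries differ in genotype, day or sort. The spread that the test uses is that of the gate difference between libraries, so it includes changes of that difference with genotype, day or sort. The split between genes that rose and fell moved with the setting. It was 58 and 58 in DESeq2, 24 and 20 after thinning to 1000 UMIs before the gate, 364 and 340 without a filter on low counts, and 580 and 462 without the Thpok-deleted day 7 library. It was 95 and 143 with all 5 GP66+ libraries, and 0 and 6, 0 and 10, and 1 and 11 with each of the other 3 libraries left out in turn. Furin was the only one of the 12 named higher genes to pass, with a log2 fold change of 1.15 ± 0.17 (SE) and an adjusted p of 0.0394. Its level was 147 ± 118 CPM in the gate and 57.3 ± 29.0 CPM in the other cells (SD, n = 4 libraries). Ccl5 had 1.68 ± 0.51 with an adjusted p of 0.152, and Nkg7 had 0.92 ± 0.22 with an adjusted p of 0.125. The call on Furin was lost without the wild type, the Thpok-sufficient or the Thpok-deleted day 30 library, at log2 fold changes of 1.07, 0.92 and 1.22 and adjusted p of 0.208, 0.150 and 0.162. Serpinb6b, a serpin, and AW112010, an RNA induced in activated T cells, also rose, by 0.84 and 0.63. Both lost their calls on leaving out the same libraries, at 0.73, 0.75 and 0.88 for Serpinb6b without the wild type, the Thpok-sufficient and the Thpok-deleted day 30 library, and 0.58, 0.57 and 0.67 for AW112010. Ccr9, a gut homing receptor, rose by 3.56 from levels under 20 CPM.

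Genes that fell in the gate were led by Il6ra, the interleukin 6 receptor, which fell by 2.85 ± 0.19 (SE, adjusted p 0.00119 in edgeR's test). Its level was 4.08 ± 2.84 CPM in the gate and 27.7 ± 20.2 CPM in the other cells (SD, n = 4). Nsg2 fell by 2.14, Ccr7 fell by 1.97, and Id3, an inhibitor of E proteins, fell by 1.91. These 4 genes kept their calls when any single library was left out, and they were the only 4 of the 36 to do so. Tcf7 fell by 1.64 ± 0.18 (adjusted p 0.0112), with -1.61 and an adjusted p of 0.0508 without the wild type library. Tnfsf8 fell by 1.72 and Tox2 fell by 1.90, each in 4 of 4 libraries, and both lost their calls without the wild type (log2 fold changes of -1.73 and -1.75) or the Thpok-sufficient day 7 library (-1.47 and -1.63), Tox2 also without the Thpok-deleted day 30 library (-1.94). Of the 32 genes that fell, Tcf7, Il6ra, Id3, Slamf6 and Dapl1 are on the memory list of 16 tested genes. Slamf6, Tox2, Tnfsf8, P2rx7 and Izumo1r are on the Tfh list of 19. No gene of these lists rose. Fam43a, Fam101b and Cd83 were the other named genes that fell, with log2 fold changes of -1.87, -1.82 and -1.82. Each lost its call without the wild type library (-1.82, -1.64 and -1.78), and Fam43a and Fam101b also without the Thpok-sufficient day 7 library (-1.66 and -1.63).

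Of the 36 called genes 17 had 50 or more UMIs in the member library, and 15 of these went in the same direction there. Any ratio on the same side of 1 counted, and for Fam101b, Spry1, Gm14718, Actn1 and Fam43a among them the counting interval includes 1. Izumo1r and Ikzf2 fell in the test but had ratios of 1.08 (0.684 to 1.64) and 1.13 (0.582 to 2.01) in members. How often other genes share a direction was not tested. Hbb-bs, Hbb-bt and Hba-a2, the haemoglobin genes, were among the genes that fell. In the Thpok-deleted day 30 library the summed erythroid markers stood at 389 CPM in the gate and 10734 CPM in the other cells, against 0 CPM in members and 2.14 CPM in the other cells of the member library. The part of this RNA in the calls on other genes was not tested.

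A term for a gate difference that differs between day 30 and day 7, fitted over all 5 GP66+ libraries, found 0 of 9506 genes in either direction (0.0%) with edgeR. At an unadjusted p under 0.05 there were 153 and 262, and DESeq2 called 0 and 3. For the 12 named higher genes this term lay between -0.88 and 0.33 on the log2 scale, with adjusted p of at least 0.951 in edgeR. Without the Thpok-deleted library of day 7 the count was 247 genes. With 3 residual degrees of freedom and both genotypes in the fit, a difference between days specific to mice with intact Thpok could be missed.

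Compared with the same gate at day 7, members at day 30 differed at many genes. Of 4687 genes with 50 or more UMIs over both arms, 317 (6.76%) stood 2-fold or more higher at day 30 and 1395 (29.8%) lower, with a median log2 ratio of -0.48 over all of them. With 1 library a day there is no test. The other cells of both libraries are given beside the members, since a day difference they share belongs to the libraries as a whole.

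Il7r led the higher genes, with 421 CPM in members (63 UMIs) and 16.5 CPM at day 7 (35 UMIs), a ratio of 25.6 (16.7 to 39.9). In the other cells the ratio was 61.7. Klf2 stood 1.97-fold (1.63 to 2.36) higher at day 30, S1pr1 2.44-fold (1.70 to 3.42) and Klf3 3.13-fold (2.13 to 4.49), with ratios of 2.19, 2.52 and 3.06 in the other cells. Tcf7 had a ratio of 1.68 (1.09 to 2.49) in the gate and 0.586 in the other cells, where it stood lower at day 30. Ccl5 stood at 7660 CPM against 3487 CPM (ratio 2.20, 2.06 to 2.34; other cells 3.19). Klrd1 had a ratio of 5.36 (3.17 to 8.79), and 2.59 in the other cells. Ly6c2 stood at 622 and 628 CPM (ratio 0.990, 0.794 to 1.22), and Ifng at 354 and 411 CPM (ratio 0.863, 0.641 to 1.14).

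Immediate response genes made up most of the other named higher genes. Nr4a3 and Nr4a2, nuclear receptors induced by T cell receptor signals, had ratios of 16.5 (10.4 to 26.1) and 6.65 (5.21 to 8.45). Crem had 6.32, Kdm6b 5.43, Nfkbid, a regulator of NF-kappa B, 5.37 and Rgs2 5.82. Btg1 and Tob2, related genes that restrain proliferation, had 5.20 and 9.48. Vps37b had 6.56 and the noncoding RNA AY036118 11.1. Each of these genes was also more than 2-fold higher at day 30 in the other cells, as was Il7r, from 2.36 for Rgs2 to 61.7 for Il7r. In the list of T cell receptor response genes 5 of 10 were higher and 0 lower. In the list of genes that respond to dissociation 6 of 12 were higher and 0 lower, Jun at 3.07 and Fosb at 3.44 among them. Both lists were counted by day in the gate only, and the part of tissue handling in them was not tested.

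Genes of dividing cells were lower at day 30 without exception in the list: 20 of 20 measured cell cycle genes, with a median log2 ratio of -2.69 when genes without a UMI are set at 3 counts. Rrm2, Birc5, Ube2c, Asf1b, Tyms and Mcm5 had 0 UMIs in members and 281 to 681 in the day 7 gate. They stood at least 16.0-, 13.8-, 9.38-, 7.95-, 7.27- and 6.59-fold lower at day 30. Stmn1 had 3 UMIs against 1304, 30.6-fold lower (10.4 to 148), and Top2a 1 against 673, 47.4-fold lower (8.47 to 1873). In the other cells Stmn1 and Top2a were 6.45- and 5.16-fold lower. Mki67, the common marker of dividing cells, had 0 and 209 UMIs.

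Effector genes are given by list, beside 6.76% of all measured genes that were 2-fold or more higher at day 30 and 29.8% lower. In the cytotoxic granule list 10 of 13 were lower at day 30 and 0 higher. Gzmb, the gene of granzyme B, had 5 UMIs in members and 1859 at day 7, 26.2-fold lower (11.2 to 80.7), and 16.7-fold lower in the other cells. Nkg7 stood at 762 and 1696 CPM, 2.23-fold lower (1.85 to 2.71), and 2.25-fold lower in the other cells. Of the S100, annexin and galectin list, genes carried by effector T cells, 13 of 16 were lower. S100a4 stood at 274 and 2299 CPM, 8.39-fold lower (6.17 to 11.7), Lgals1 6.13-fold lower (5.14 to 7.37) and Anxa2 20.4-fold lower (7.94 to 74.9). In the other cells S100a4, Lgals1 and Anxa2 were 9.29-, 4.24- and 14.5-fold lower. In the glycolysis list 9 of 13 were lower, with Gapdh 2.87-fold and Ldha 2.86-fold lower, and 3.21- and 3.05-fold lower in the other cells. The Th1 and inflammatory helper list had 3 of 22 higher (Fasl, Ifngr1 and Ccr2) and 4 lower, Il2, Il12rb2 and Crip1 among them. Its share of lower genes was not above that of all genes, and its median log2 ratio was 0.09, beside -0.48 for all genes. Fasl had a log2 ratio of -0.21 by day when cells were thinned to 1000 UMIs before the gate.

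**Figure D4:**
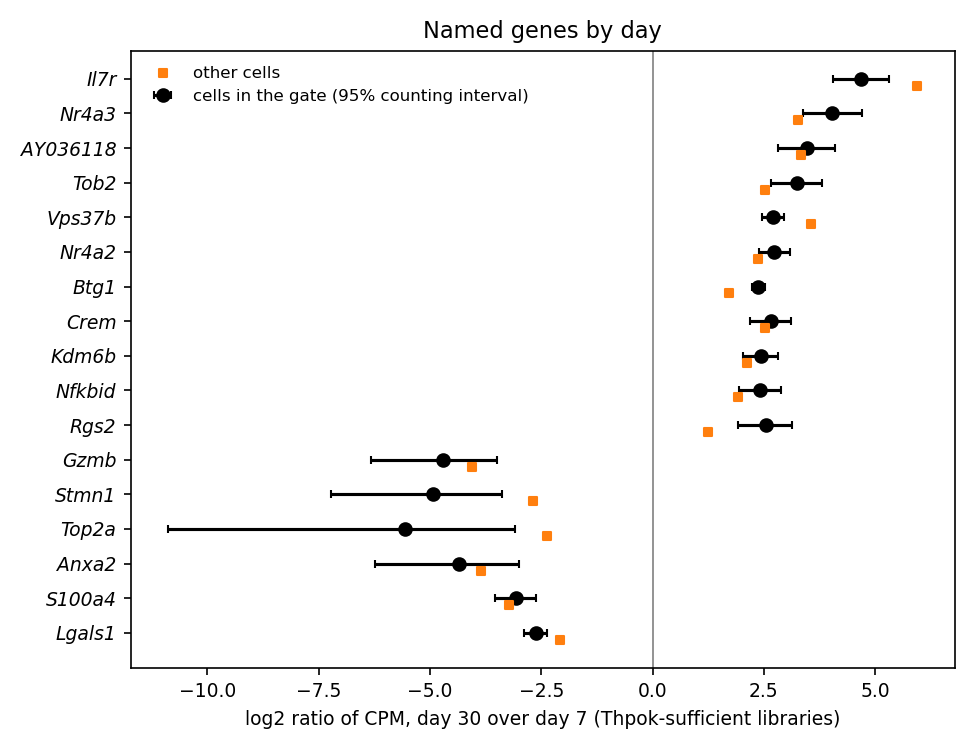
Log2 ratio of CPM at day 30 over day 7 in mice with intact Thpok, for the genes with the largest differences by day that are reported here and have a UMI in members. Black points are cells in the gate with 95% counting intervals and orange squares the other cells, which lie on the same side of 0 for all genes drawn; list genes such as Tcf7, on opposite sides, are not drawn.

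Depth differed between the days and limits this comparison, since the day 7 gate held a median of 6099 UMIs per cell against 2000.5 in members. Of the 315 gate cells of day 7, 304 had as many UMIs as the members' top quartile of depth or more. Thinned to 1000 UMIs before the gate was applied, only 463 genes reached 50 UMIs. Of these, 52 (11.2%) were 2-fold higher and 147 (31.7%) lower, beside 6.76% and 29.8% without thinning.

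Single members often held UMIs of more than 1 of these genes. Of the 64 members, 38 held UMIs of both Ccl5 and Nkg7, 20 of Ccl5, Nkg7 and Ly6c2, and 6 of none of these 3. Ccl5 was found in 52 members and Il7r in 35, and both in 30 (46.9%, 34.3% to 59.8%), against 24 of the 315 gate cells at day 7 (7.62%, 4.94% to 11.1%) and 92 of the 661 other cells at day 30 (13.9%, 11.4% to 16.8%). Thinned to 1000 UMIs per cell after the gate was set, the shares were 30.2%, 1.27% and 8.45%. A UMI of Il7r was found in 29 of the day 7 gate cells and 335 of the other cells at day 30, and whether the joint shares differ from those that each gene's own share gives was not tested. In droplets with at most 100 UMIs, taken as free RNA, Il7r stood at 349 CPM at day 30 and 19.9 CPM at day 7 in the Thpok-sufficient libraries, and Ccl5 at 1427 and 1094 CPM, and the part of free RNA in these shares was not tested. Ccl5 was found with Tcf7 or Ccr7 in 21 members, and in 9 of 63 after thinning.

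At 1000 UMIs per cell Il7r was found in 38.1% of members, 34.6% of the other cells and 1.90% of the day 7 gate. Nkg7 was found in 46.0% of members, 15.8% of the other cells and 74.0% of the day 7 gate. For Nkg7 the members therefore lay between both, with intervals that overlapped neither, while for Il7r they overlapped the other cells of their own day. For these shares the gate was set before thinning, so depth was made equal for the genes scored and not for the gate. At 1000 UMIs, 52.4% of members and 39.7% of the day 7 gate cells would still pass the gate. Tcf7 or Ccr7 was found in 19.0%, 34.3% and 9.21%.

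**Figure D5:**
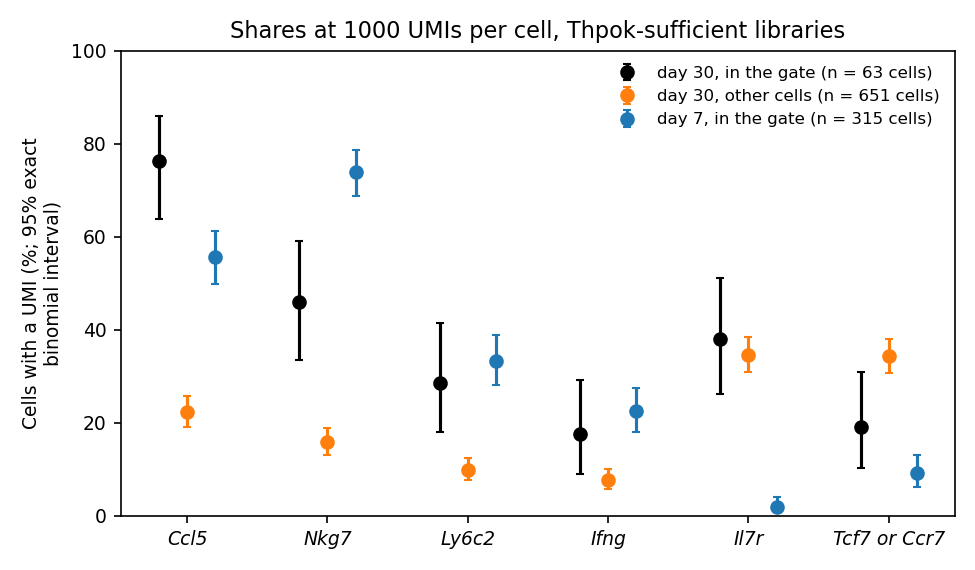
Share of cells with a UMI of each gene (y axis, percent, 95% exact binomial interval) after thinning each cell to 1000 UMIs, for members (black), the other cells of day 30 (orange) and the gate of day 7 (blue), all from mice with intact Thpok. The gate was set before thinning, at the full depth of each library. Members lie with the day 7 gate for Ly6c2 and with the other cells of day 30 for Il7r.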

How the data were processed

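The authors deposited raw UMI counts for each gene and barcode of 10x 3' version 2 libraries, per the labels' protocols. The submitters' processing notes name bcl2fastq 2.17, Cell Ranger (version not given) and the mm10 build. UMIs were summed per library and gate arm and divided by the arm's total (CPM). Genes with 50 or more UMIs over both arms were compared; 2-fold or more counted as a difference, and arms without a UMI were set at 3 counts. Sums were tested with edgeR 4.0.16 (quasi-likelihood, TMM, filterByExpr, adjusted p under 0.05), with DESeq2 1.42.0 as alternative. On simulated data the edgeR test recovered 96% of 100 genes changed 2-fold and 100% of 100 changed 4-fold. It also made 20 false calls among the 9592 genes tested. In the simulation all libraries shared 1 mean profile, and each changed gene stood at 20 CPM or more and had the same fold in every library. The libraries of this series differ in genotype, day or sort, so these rates do not give the recovery in the measured data. The replicate is the library, and no source says how many mice each pools. The p-values therefore measure the spread of the gate difference between libraries, which differ in genotype, day or sort. Named genes are up to 12 per direction in each comparison, ranked by the interval bound nearest 1, up to 8 per direction in the test (20 CPM or more), and the genes of the chosen lists. The members and lists were chosen with earlier results of these data known. Coordinates are from GENCODE vM21. The counts include some genes whose own values are not reported here.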

Additional observations from a re-analysis of the deposited data

How the results depend on the processing

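Counts of genes depended on the count minimum. With 20 UMIs, 319 and 666 of 5724 genes were higher and lower in members than in the other cells. By day, 735 of 7015 genes were then higher at day 30. With 100 UMIs these were 23 and 51 of 1682 genes, and 163 of 2903 genes by day. A gate of 2 or more Cxcr6 UMIs took in 1.93% of cells and gave 477 of 2932 genes higher in members. By day it gave 506 higher and 677 lower of 3287 genes. Thinning to 1000 UMIs before the gate gave 4.62% of cells and 52 and 147 of 463 genes by day. TMM factors gave 40 of 3127 genes higher in members. The test over 4 libraries called 36 genes, and 116 with DESeq2, 704 without a filter on low counts, 0 without the library block, 44 on thinning, 238 with all 5 GP66+ libraries and 2767 with the 2 day 7 libraries of intact Thpok. Leaving out 1 library gave 6 to 1042 (6 without the wild type, 10 without the Thpok-sufficient day 7, 12 without the Thpok-deleted day 30 and 1042 without the Thpok-deleted day 7 library). The day term gave 3 genes with DESeq2, 44 without a filter, and 0 to 247 with 1 library left out (1 without the wild type, 247 without the Thpok-deleted day 7 library). The cause of these shifts was not tested.

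Of 4348 values of single genes, with a gene counted again under each setting, 4008 counted as the same, 297 moved, 36 lost their call and 7 reversed. A ratio counted as the same when it stayed within its counting interval of the main setting, without a check of its direction. A tested gene counted as the same when it kept its call. A ratio could count as reversed only for a gene past 2-fold, so changes of sign among other genes are not in the 7. By day, Gbp2 reversed with 2 or more Cxcr6 UMIs (log2 ratio 0.35), and on thinning Fasl (-0.21), Relb (-0.85) and Izumo1r (-1.37); Izumo1r also reversed without the 5% of cells with the most UMIs (-0.99). Against the other cells, Fasl (-0.025) and Klrk1 (-0.33) reversed on thinning. Weighting by depth could not be computed for the day comparison. The edgeR test paired the gate with the other cells of the same library, with the library as block. Libraries were not paired with each other, since each group has 1 library. With 149614 UMIs in members, a gene at 20 CPM has about 3 UMIs, so most genes of low level could not be compared.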

Other observations

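Some genes of chemokine biology lay under the minimum of 50 UMIs and were picked out after their values were seen. Ccr2, a receptor that draws cells to inflamed tissue, had 24 UMIs in 16 members and 22 UMIs in 17 of the other cells, a ratio of 10.2 (95% counting interval 5.49 to 19.1). In the same gate its ratio was 46.8 in the wild type and 15.1 in the Thpok-sufficient library of day 7, and 1.31 and 2.70 in the Thpok-deleted libraries of day 7 and day 30. In edgeR's test over the 4 libraries the log2 fold change of Ccr2 was 2.37 ± 0.69 (SE), which did not pass (adjusted p 0.146). Ccl3 had 10 UMIs in 2 members and 0 in the other cells.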
